A study of Homo sapiens with 6 samples.

Results

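Interferon-stimulated genes are the genes that cells switch on after type I, II or III interferon has been sensed. The set of 41 such genes was chosen by symbol, with earlier results of these data known. For 39 of them a probe set with that gene as its only symbol was found among the 18377 genes measured. GBP1 and STAT2 were not analysed here. Each gene was read from 1 probe set, the one with the highest mean, and GBP2 alone had more than 1 to choose from. Transcripts were measured on 6 Affymetrix whole-transcript arrays from MCF10A-HER2/3 cells, a line made from MCF10A, an established, non-tumorigenic human mammary epithelial line. The cells carried 1 of 3 inducible miRs, namely SHP2 miR1, SHP2 miR2 or the control construct CTRL miR, with 2 arrays for each. Both SHP2 miRs are directed at SHP2, the tyrosine phosphatase encoded by PTPN11. All groups, controls included, received doxycycline from the day after seeding, refreshed every 2 days, and all were grown for 15 days in three-dimensional culture in medium with EGF, insulin, cholera toxin, hydrocortisone and horse serum. No interferon treatment is named in the labels. RNA from whole cultures was used, so fewer cells of a type and less RNA per cell cannot be told apart.

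Type I and type III interferons act through receptors that carry the kinases JAK1 and TYK2. Their signal reaches a transcription complex that holds IRF9 and binds a promoter element called ISRE. Interferon gamma acts through JAK1 and JAK2, and its signal ends at another element, GAS. The induced proteins degrade or trap viral RNA, block viral entry, couple the ubiquitin-like protein ISG15 to other proteins, and feed back on the pathway. SHP2 relays signals from receptor tyrosine kinases to the RAS pathway.

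Promoter stretches are shown for the 3 members with a listed promoter that rose most, the member that fell, and the ISRE-holding member of smallest difference, so that the elements can be set beside the measurements. The sequences are RefSeq's, build GRCh38.p14, written from 180 bases before to 9 bases after the gene start, which is counted as 0. Capitals mark ISRE letters, GAAANNGAAA or the closer-spaced GAAANGAAA, and GAS letters, TTCNNNGAA, on either strand. Where matches overlap they form 1 run of capitals.
OAS1 promoter, chr12:112906782-112906971, plus strand: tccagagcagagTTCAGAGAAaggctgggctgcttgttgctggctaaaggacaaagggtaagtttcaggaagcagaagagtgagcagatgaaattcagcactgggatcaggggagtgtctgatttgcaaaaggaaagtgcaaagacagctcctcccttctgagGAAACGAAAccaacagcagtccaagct
IFITM1 promoter, chr11:313860-314049, plus strand: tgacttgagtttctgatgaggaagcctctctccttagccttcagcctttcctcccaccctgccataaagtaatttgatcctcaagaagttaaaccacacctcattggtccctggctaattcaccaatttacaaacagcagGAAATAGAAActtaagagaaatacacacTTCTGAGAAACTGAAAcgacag
IFI44L promoter, chr1:78620268-78620457, plus strand: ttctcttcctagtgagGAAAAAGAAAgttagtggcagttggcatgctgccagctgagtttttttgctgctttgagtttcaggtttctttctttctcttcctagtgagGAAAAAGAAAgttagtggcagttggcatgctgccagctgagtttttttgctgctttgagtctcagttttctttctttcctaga
SAMD9 promoter, chr7:93117970-93118159, minus strand: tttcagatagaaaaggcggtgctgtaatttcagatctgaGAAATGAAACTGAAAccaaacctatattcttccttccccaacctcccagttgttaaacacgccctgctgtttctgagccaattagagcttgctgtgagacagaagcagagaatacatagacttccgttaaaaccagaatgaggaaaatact
IFI6 promoter, chr1:27672183-27672372, minus strand: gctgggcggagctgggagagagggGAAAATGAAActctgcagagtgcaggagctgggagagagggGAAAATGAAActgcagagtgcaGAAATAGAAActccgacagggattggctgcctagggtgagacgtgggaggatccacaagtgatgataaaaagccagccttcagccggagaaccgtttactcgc

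OAS1 had a close-spaced ISRE match centred 13 bases before its start and a GAS match centred at -164. In IFITM1 an ISRE and a GAS match overlapped at the start, with another ISRE upstream. IFI44L carried the same ISRE stretch in both copies of an exact repeat of at least 76 bases, whose copies lay 91 bases apart. The first copy began at the edge of the printed stretch, so its full length was not measured. SAMD9, the member that fell, held overlapping close-spaced and wider-spaced ISRE matches at -137 and -131.5, counted to their centres. IFI6 held 3 ISRE matches, of which 2 lay in a 29-base exact repeat, and its transcript differed by -0.01 on the log2 scale between SHP2 miR and control arrays. Elements of the same letters were therefore present in promoters of genes that rose, fell and did not pass the test.

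A 300-base RefSeq window, from 250 bases before to 50 after the first listed start, was found for 34 members, of which 32 were measured. The entries of GBP2, USP18, OAS2, OASL, IFIT2, MX2 and IRF7 were missing. GAAANNGAAA was present in 21 of the 32 windows (65.6%), against 3.65% of the 27305 promoters in the table. With GAAANGAAA also allowed it was 26 of 32 (81.2%), against 6.55%. By outcome in the comparison of both SHP2 miRs with control, GAAANNGAAA was found in 2 of the 4 windows of members that rose, the 1 of the member that fell, and 18 of 27 of those that did not pass. TTCNNNGAA was found in 11 of 32 windows (34.4%), against 7.88% of all promoters. It was found in 3 of the 4 members that rose, OAS1, IFITM1 and IRF1, in 8 of the 27 that did not pass, and not in SAMD9. The stricter GAS spelling TTCCNGGAA was found in 3 of 32 windows, against 1.22% of all promoters, and in none of the 4. Over the 14210 promoters of genes measured here, GAAANNGAAA was found in 3.03%, or 5.58% with GAAANGAAA also allowed. In the same promoters TTCNNNGAA was found in 7.04% and TTCCNGGAA in 1.21%. With any listed start counted, GAAANNGAAA reached 23 of 32 members (PARP9 and RSAD2 were added) against 4.38% of all genes. A match describes letters, not binding, and the numbers are too small to compare the outcomes.

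**Figure D1:**
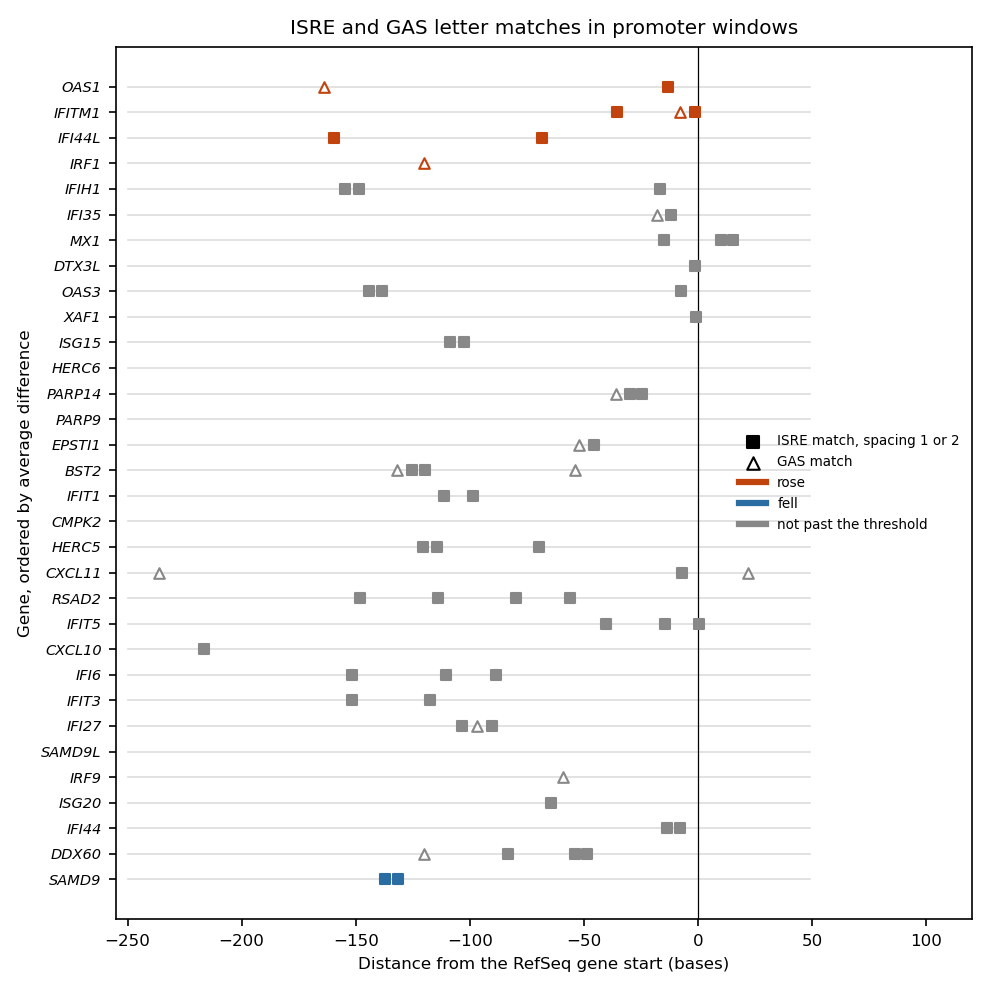
Positions of ISRE matches (squares, spacing of 1 or 2 bases) and GAS matches (triangles) in the promoter windows of 32 measured members, in bases from the RefSeq gene start, with genes ordered by the average SHP2 miR minus CTRL miR difference and coloured by outcome. Squares lie along the whole order, from OAS1 and IFITM1 at the top to SAMD9 at the bottom, and 26 of the 32 genes have at least 1.

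PTPN11, the targeted gene, read 7.96 and 8.44 in control, 6.04 and 5.71 under SHP2 miR1 and 6.90 and 7.28 under SHP2 miR2 (log2). All 4 SHP2 miR arrays lay below both controls, and SHP2 miR1 lay lowest. Array medians lay between 5.23 and 5.35. The epithelial markers KRT5, KRT14, CDH3, EGFR, ITGB4 and LAMB3 read 7.78 to 11.5, while KRT17 and TP63 were not analysed here. Of the receptors in the line's name, ERBB3 read 9.67 and 9.54 in control and 8.05 to 8.48 on the SHP2 miR arrays, an average difference of -1.35 (adjusted p = 0.000959). ERBB2 read 9.66 and 9.61 in control and 8.98 to 9.59 on the SHP2 miR arrays, all below both controls, with an average difference of -0.38 (adjusted p = 0.136). The part of these in the differences of the interferon-stimulated genes was not tested.

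Averaged over both SHP2 miRs, 6 of the 39 members rose, 1 fell, and 32 did not pass the test (limma, adjusted p under 0.05 over all genes). The 6 were OAS1, IFITM1, GBP2, IFI44L, IRF1 and USP18, at 0.62 to 1.25 on the log2 scale, and the 1 was SAMD9, which fell by 1.12. Over all genes, 1.53% were higher and 2.67% lower by the same rule. The members were chosen with earlier results of these data known, so their share is not independent of these data. The median difference was 0.14 over the 39 members and 0.02 over all genes. The member median was 0.06 with quantile normalization, 0.05 with cyclic loess and 0.09 without CTRL miR replicate 2. With arrays centred on their medians the split of members was 6 higher and 2 lower, DDX60 being the addition. On 9 members all 4 SHP2 miR arrays lay above both controls, against 12.6% of all genes. These were the 6 that rose and IFI35, IFIH1 and DTX3L. On SAMD9, DDX60 and OASL, 3 members, they lay below both, against 13.6%.

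**Figure D2:**
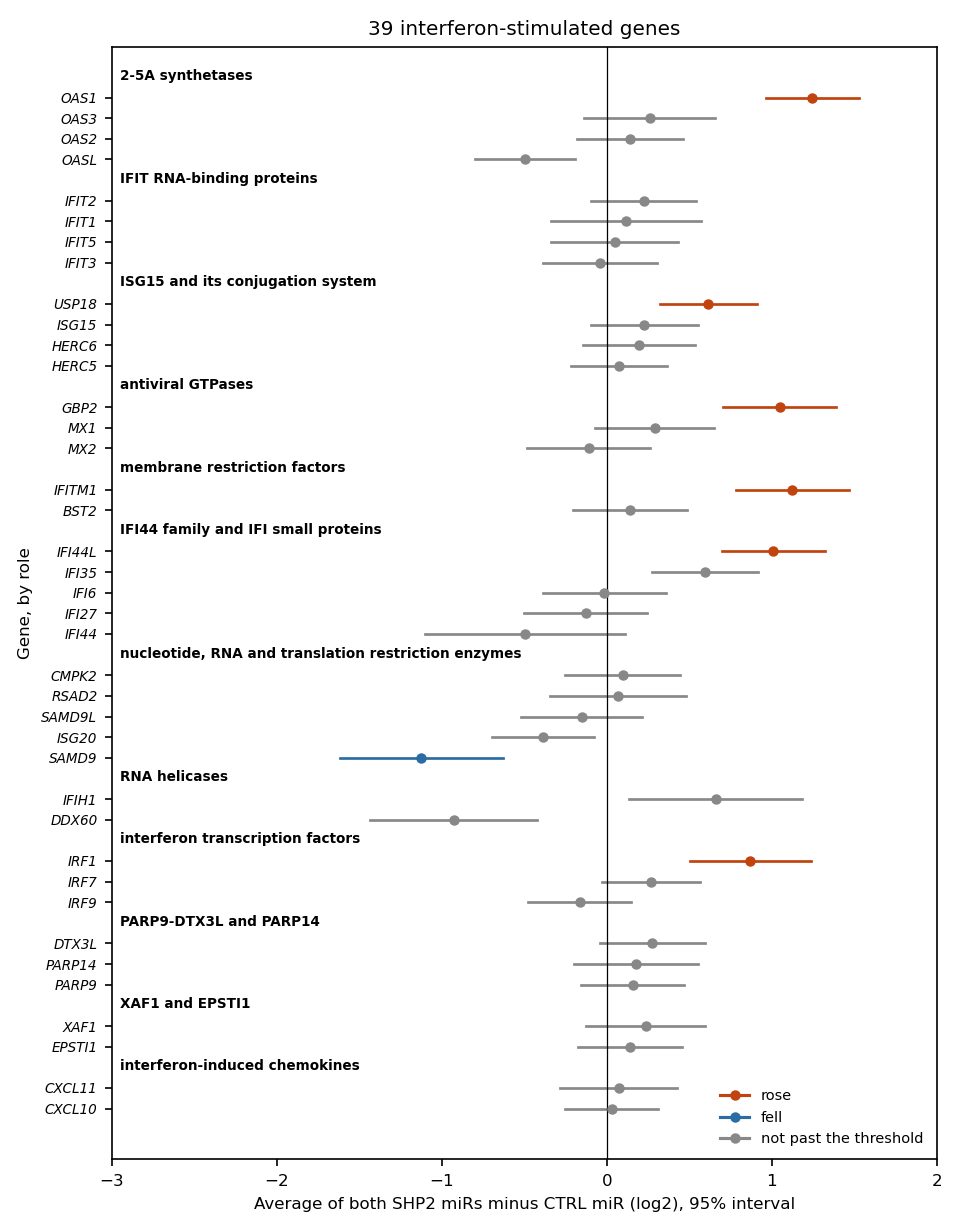
Average of both SHP2 miRs minus CTRL miR for the 39 measured members, in log2 units, grouped by role, with points for the fitted difference and bars for its 95% interval. The 6 members that rose and SAMD9, which fell, stand beside members of the same role whose intervals mostly span 0.

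Of the oligoadenylate synthetases, enzymes that sense double-stranded RNA and activate RNase L, OAS1 rose. It read 6.10 and 6.12 on the controls, 7.80 and 7.77 under SHP2 miR1, and 6.98 and 6.87 under SHP2 miR2. Replicates lay close together and the 3 groups did not overlap, under SHP2 miR1 the highest. The average difference was 1.25 (SE 0.12, 2.37-fold, adjusted p = 0.00122), and it passed with any 1 array left out (adjusted p at most 0.0279). With both SHP2 miRs pooled as 1 group it did not (adjusted p = 0.0679). OAS3 and OAS2, which follow OAS1 on chromosome 12, had differences of 0.26 (95% interval -0.14 to 0.66) and 0.14 (-0.18 to 0.46). The OAS-like protein OASL had -0.50 (-0.80 to -0.19, adjusted p = 0.0778; 0.046 with dim genes left out), with all 4 SHP2 miR arrays, at 5.32 to 5.70, below the controls at 6.05 and 6.06. OAS1 and OASL thus had intervals on opposite sides of 0.

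IFITM1 encodes a membrane protein that blocks the entry of enveloped viruses. Its values were 5.53 and 5.21 in control, 6.81 and 6.51 under SHP2 miR1 and 6.33 and 6.32 under SHP2 miR2. Every SHP2 miR array lay above both controls. Averaged, the rise was 1.12 (SE 0.15, 2.18-fold, adjusted p = 0.0047), and it missed the threshold without CTRL miR replicate 2 (adjusted p = 0.0874). Transcripts of IFITM2 and IFITM3, close paralogs of IFITM1, may bind some of the same probes. BST2, the tether that holds virus particles on the cell surface, had a difference of 0.14 (-0.21 to 0.48) and read 7.70 to 8.14.

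GBP2, an interferon-induced guanylate-binding GTPase, read 4.53 and 4.94 in control, 5.89 and 5.72 under SHP2 miR1 and 5.74 and 5.77 under SHP2 miR2. Both SHP2 miRs gave nearly the same level here, above both controls. GBP2 rose on average by 1.05 (SE 0.15, 2.07-fold, adjusted p = 0.00673), and it missed the threshold without CTRL miR replicate 1 (adjusted p = 0.0658). Of the 2 GBP2 probe sets only the one with the higher mean is given here. Over all settings run the GBP2 difference ranged from 0.82 to 1.25. GBP2 passed under all 9 other settings that kept all arrays, the averaging of probe sets among them. The dynamin-like antiviral GTPases MX1 and MX2 had 0.29 (-0.07 to 0.65) and -0.11 (-0.48 to 0.26).

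IFI44L, an interferon-induced protein of little known function, read 5.29 and 5.55 in control, 6.68 and 6.61 under SHP2 miR1 and 6.13 and 6.29 under SHP2 miR2. The 3 groups did not overlap. On average IFI44L rose by 1.01 (SE 0.14, 2.01-fold, adjusted p = 0.00509), and it missed the threshold without CTRL miR replicate 1 (adjusted p = 0.0605). Its paralog IFI44, next to it on chromosome 1, read 4.95 and 5.30 in control, 4.42 and 4.58 under SHP2 miR1, and 4.21 and 5.32 under SHP2 miR2. The SHP2 miR2 arrays of IFI44 lay on either side of the controls, and the average difference was -0.49 (-1.10 to 0.11). IFI35, a leucine-zipper protein, had 0.60 (0.28 to 0.92, adjusted p = 0.052; it passed under 4 of 9 other settings), with all 4 SHP2 miR arrays, at 6.44 to 6.84, above the controls at 6.20 and 5.87. The mitochondrial membrane proteins IFI6 and IFI27 had -0.01 (-0.39 to 0.36) and -0.13 (-0.50 to 0.25).

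USP18 removes ISG15 from proteins and restrains the type I interferon receptor. It read 5.63 and 5.57 in control, 6.18 and 6.16 under SHP2 miR1 and 6.37 and 6.15 under SHP2 miR2. A further probe set, which names USP18 among several symbols, was not used. The SHP2 miR arrays lay above both controls and the SHP2 miRs overlapped each other. USP18 rose on average by 0.62 (SE 0.13, 1.53-fold, adjusted p = 0.0346), and USP18 was the call least robust to the arrays used. It missed the threshold without any 1 of 5 of the 6 arrays, the exception being SHP2 miR2 replicate 2 (adjusted p 0.0495 to 0.267). With both SHP2 miRs pooled as 1 group it also missed (adjusted p = 0.0843). ISG15 itself had 0.23 (-0.10 to 0.55) and its ligase HERC5 had 0.07. HERC6, next to HERC5 on chromosome 4, had 0.20.

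Among the transcription factors of the response, IRF1, which binds ISRE-like elements, rose. It read 5.56 and 5.75 in control, 6.91 and 6.43 under SHP2 miR1 and 6.42 and 6.33 under SHP2 miR2, so that all SHP2 miR arrays were above both controls. The average difference was 0.87 (SE 0.16, 1.83-fold, adjusted p = 0.0208). It missed the threshold without CTRL miR replicate 1, CTRL miR replicate 2 or SHP2 miR2 replicate 1 (adjusted p at most 0.138), or with both SHP2 miRs pooled as 1 group (adjusted p = 0.0638). IRF7, which amplifies type I interferon production, had 0.27 (-0.03 to 0.56), and IRF9, a DNA-binding part of the complex on ISRE, had -0.16 (-0.48 to 0.15).

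SAMD9 encodes a cytoplasmic protein that restricts poxviruses and represses translation. It read 5.46 and 6.21 in control, 4.39 and 4.69 under SHP2 miR1 and 4.70 and 5.08 under SHP2 miR2. All 4 SHP2 miR arrays lay below both controls, although the controls stood well apart. The average difference was -1.12 (SE 0.22, 2.18-fold lower, adjusted p = 0.0244). It ranged from -1.50 to -0.75 as 1 array was left out, and missed the threshold without the higher control (CTRL miR replicate 2) or without the first replicate of either SHP2 miR (adjusted p at most 0.255). With both SHP2 miRs pooled as 1 group it did not pass (adjusted p = 0.0618). Its paralog SAMD9L, next to it on chromosome 7, had -0.15 (-0.52 to 0.21).

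DDX60, a helicase that promotes RIG-I signalling, had a similar layout of values to SAMD9. It read 5.17 and 5.74 in control, 4.08 and 4.66 under SHP2 miR1 and 4.47 and 4.90 under SHP2 miR2. All 4 SHP2 miR arrays lay below both controls, and the average difference of -0.93 (-1.43 to -0.42) did not pass (adjusted p = 0.0544). IFIH1, the MDA5 sensor of long double-stranded RNA, had 0.66 (0.14 to 1.18, adjusted p = 0.152). Its lower control, at 3.71, lay well under its other arrays, at 4.47 to 5.09.

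**Figure D3:**
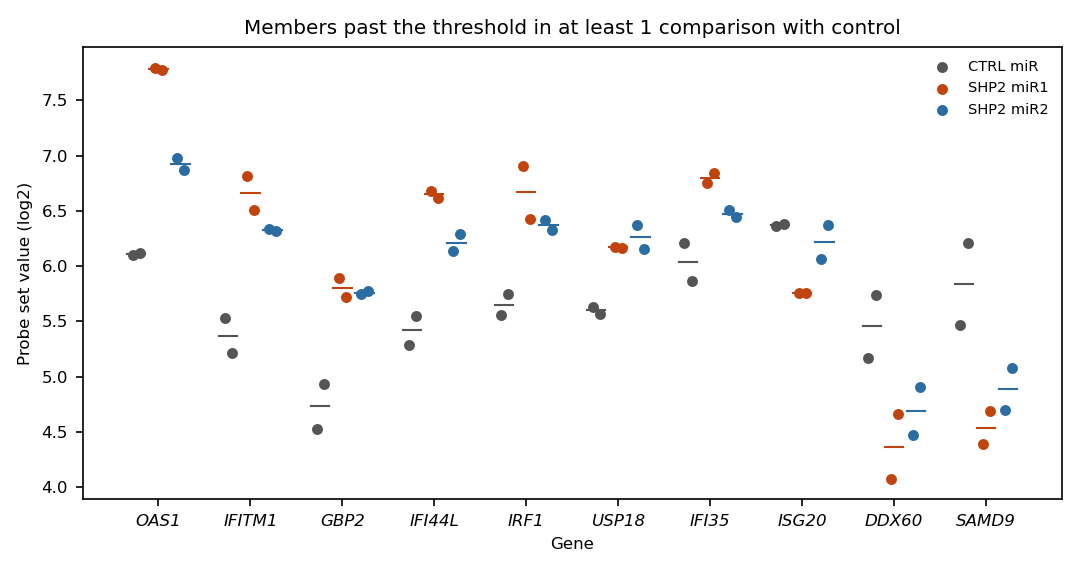
Log2 probe set values on each array for the 10 members that passed the test with either the average of both SHP2 miRs or SHP2 miR1, with points for single arrays and bars for the mean of the 2 arrays of a group. OAS1 shows 3 separate levels, GBP2 and USP18 have similar levels with both SHP2 miRs, and SAMD9 and DDX60 lie below both controls with widely spaced controls.

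The remaining members did not pass on average, and their differences were smaller in size than those of the members that did. Several of them were dim, as listed below. The IFIT proteins, which bind foreign RNA ends, had differences of 0.12 (IFIT1), 0.22 (IFIT2), -0.04 (IFIT3) and 0.05 (IFIT5). RSAD2, the radical enzyme viperin, and its neighbour CMPK2, a nucleotide kinase, had 0.07 and 0.10, and the RNA exonuclease ISG20 had -0.39 (-0.70 to -0.08, adjusted p = 0.158). PARP9 and its partner DTX3L, which share a promoter region, had 0.16 and 0.28, and PARP14 had 0.18. XAF1, an apoptosis-promoting protein, and EPSTI1 had 0.24 and 0.14. The chemokines CXCL10 and CXCL11, which recruit T cells and are strongly induced by interferon in many cells, had 0.03 and 0.07.

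Of the 32 members that did not pass, 22 had a positive difference and 10 a negative one. Over all 18377 genes, 9701 differences were positive and 8676 negative. Of all 39 members, 12 had an unadjusted p under 0.05, against 20.9% of all genes. In 31 of the 32 the 95% interval excluded a rise of 1 log2 unit, the exception being IFIH1. In 29 it also excluded a fall of 1 unit, the further exceptions being DDX60 and IFI44. These intervals cover the spread between arrays and not changes too small to register at low signal. Members with a mean value over all 6 arrays under 4.76, the 40th percentile of all probe sets, were called dim. SHP2 miR arrays count in this mean, so a rise can lift a member over the cut. GBP2, with a control mean of 4.73, was not dim for that reason. The absence of dim members among those that rose is therefore partly fixed by the rule. All 13 dim members were among the 32: OAS2, IFIT1, IFIT2, IFIT3, HERC5, MX2, RSAD2, SAMD9L, IFIH1, XAF1, EPSTI1, CXCL10 and CXCL11. CXCL10 read 2.70 to 2.94, values that do not separate low expression from none. The other 19 that did not pass, ISG15, IFI6 and BST2 among them, were not dim.

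**Figure D4:**
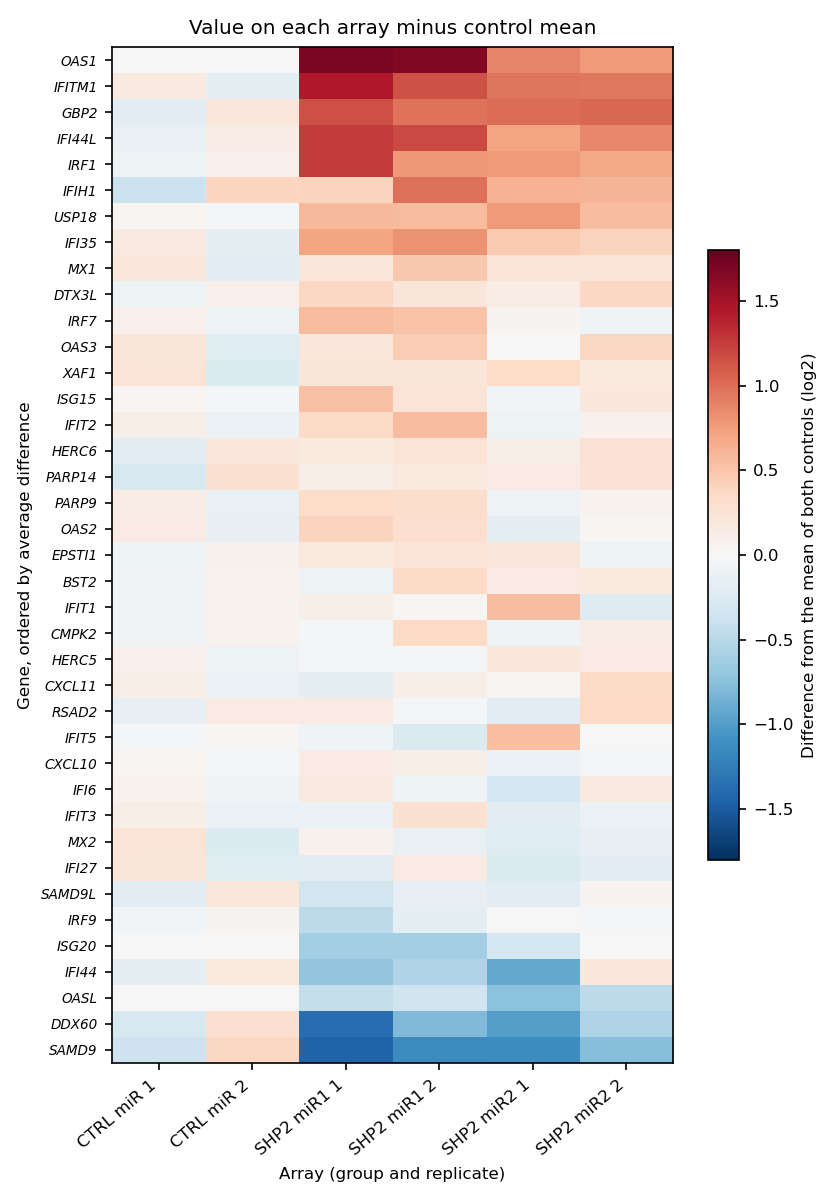
Value of each of the 39 members on each of the 6 arrays minus the mean of both controls, in log2 units, with genes ordered by average difference. The upper rows, from OAS1 to IFI35, are raised on all 4 SHP2 miR arrays, the middle rows are pale and mixed in sign, and DDX60 and SAMD9 at the bottom are lowered on all 4.

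With SHP2 miR1 alone, 7 members were higher and 3 lower than in control, against 2.66% and 5.94% of all genes. The 7 were the 6 that rose on average and IFI35, at 0.76 (SE 0.16, adjusted p = 0.0263). OAS1 rose by 1.68 (3.20-fold, adjusted p = 0.000416), IFITM1 by 1.29, IFI44L by 1.23, GBP2 by 1.07, IRF1 by 1.02 and USP18 by 0.57 (adjusted p = 0.0498). The 3 lower were SAMD9 at -1.30, DDX60 at -1.09 (adjusted p = 0.0352) and ISG20 at -0.62 (adjusted p = 0.0456). ISG20 read 6.37 and 6.38 in control, 5.76 and 5.76 under SHP2 miR1 and 6.06 and 6.37 under SHP2 miR2, so that 1 SHP2 miR2 array lay between the controls. IRF7, at 0.54 (adjusted p = 0.0573), passed under 4 of the 9 other settings that kept all arrays. USP18 lost its call under 4 of these 9 and ISG20 under 1. Of the 10, only OAS1, IFITM1 and IFI44L passed for SHP2 miR1 with any 1 array left out. Without SHP2 miR1 replicate 1 the count was 3 members, and without CTRL miR replicate 2 it was 4. USP18 missed the threshold without any 1 of the 6 arrays. GBP2 did so without SHP2 miR1 replicate 1, and IRF1 without that array or either control. IFI35 did so without CTRL miR replicate 2 or either SHP2 miR1 array, SAMD9 and DDX60 without CTRL miR replicate 2 or SHP2 miR1 replicate 1, and ISG20 without any 1 of the 4 arrays compared.

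With SHP2 miR2 alone, 0 members passed the limma test, against 0.37% of all genes, and 11 of 39 had an unadjusted p under 0.05, against 11.0% of all genes. The nearest were GBP2 at 1.02 (adjusted p = 0.0523), OAS1 at 0.82 (adjusted p = 0.059), IFITM1 at 0.96 (adjusted p = 0.0648) and IFI44L at 0.79 (adjusted p = 0.0881). These 4 passed when dim genes were left out and when a mean-variance trend with a robust prior was used. When dim genes were left out, GBP2 was kept only through its SHP2 miR values. SAMD9 had -0.95 (adjusted p = 0.191). Both comparisons share the same control arrays, so their values are given side by side only.

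The direct difference between the SHP2 miRs does not use the controls. There 0 members passed, against 0.19% of all genes, and 6 of 39 had an unadjusted p under 0.05, against 17.7% of all genes, so the members' share was no higher than the background. OAS1 was lower under SHP2 miR2 than under SHP2 miR1 by a difference of -0.86 (-1.19 to -0.53, adjusted p = 0.0626), and it passed under 3 of the other settings. IRF7 had -0.55 (-0.89 to -0.21, adjusted p = 0.142) and IFI44L -0.44 (-0.80 to -0.08, adjusted p = 0.218). For GBP2 and USP18 the difference was -0.05 (-0.44 to 0.35) and 0.09 (-0.25 to 0.43), so a difference of 0.5 was outside both intervals. The median over the 39 members was -0.11.

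Members that lie next to each other on a chromosome, with no other protein-coding gene between them, formed 11 pairs with both measured. In 8 of these neither member passed. In the other 3 a member past the threshold stood beside one that was not: IFI44L and IFI44 on chromosome 1, OAS1 and OAS3 on chromosome 12, and SAMD9 and SAMD9L on chromosome 7. In IFI44L and IFI44 the 95% intervals did not meet, at 0.70 to 1.32 and -1.10 to 0.11. In OAS1 and OAS3 they did not meet either, at 0.96 to 1.53 and -0.14 to 0.66. For SAMD9 and SAMD9L they did not meet, at -1.62 to -0.63 and -0.52 to 0.21. The difference within a pair was not tested, and SAMD9L, unlike its partner, was dim.

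Of 94 other genes of interferon signalling, 86 were measured. Averaged over both SHP2 miRs, 9 rose and 2 fell, against 1.53% and 2.67% of all genes. These genes, the effectors below included, were also listed with earlier results of these data known. Their shares are not independent of these data. The 2 that fell were JAK2 and PTPN11, the target of the SHP2 miRs. Among the ligands, 16 of 21 were measured and 12 of these were dim. IFNL3, a type III interferon, rose by 0.76 (adjusted p = 0.0351), while the near-identical IFNL2 had -0.10. Transcripts of such paralogs cannot be told apart on probes they share. IFNB1, the gene of interferon beta, read 2.60 to 3.21 and had 0.05. None of the 6 receptor chains passed by limma, with 2 at an unadjusted p under 0.05: IFNGR1, which binds interferon gamma, had 0.51 (adjusted p = 0.0627) and IFNAR1 had -0.36 (adjusted p = 0.184).

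Of the 4 signal transducers measured, JAK2, the kinase on the interferon gamma receptor, fell by 0.80 (SE 0.17, adjusted p = 0.0353). It read 5.30 and 5.83 in control and 4.55 to 4.98 on the SHP2 miR arrays. Of 9 negative regulators only PTPN11 passed, and the phosphatase PTPN1 had -0.53 (adjusted p = 0.0507). Of 15 nucleic acid sensors and adaptors, TLR3, the endosomal receptor for double-stranded RNA, rose by 1.21 (SE 0.17, adjusted p = 0.00636). TLR3 was dim, with a mean of 4.73 over all arrays and 3.92 in control, so its rise was read from a low signal.

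Of 38 further interferon-induced effectors, 36 were measured. By limma 7 rose and 0 fell, against 1.53% and 2.67% of all genes. An unadjusted p under 0.05 was found for 13, against 20.9% of all genes. TNFSF10, the death ligand TRAIL, was at 4.16 ± 0.27 in control, 5.82 ± 0.04 under SHP2 miR1 and 5.14 ± 0.19 under SHP2 miR2 (log2, mean ± SD, n = 2 each). It rose on average by 1.32 (SE 0.16, adjusted p = 0.00277). PSMB9, an immunoproteasome subunit, rose by 1.16 and UBA7, the enzyme that activates ISG15 for conjugation, by 0.95. IFITM3, a paralog of IFITM1, rose by 0.81 (adjusted p = 0.0128), and IFITM2, named after its values were seen, had 0.63 (adjusted p = 0.0528). The median of the 36 was 0.14, as for the 39 members.

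**Figure D5:**
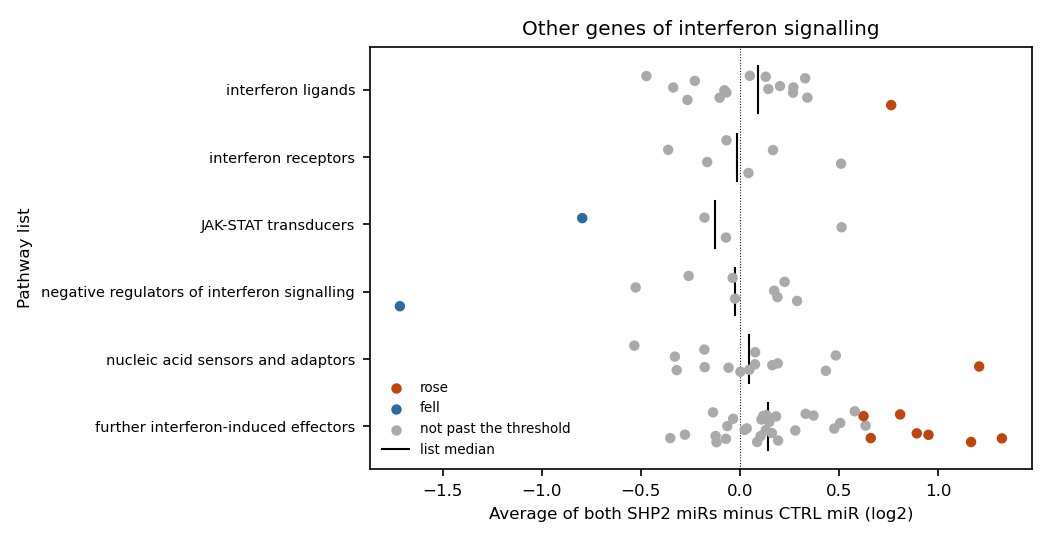
Average of both SHP2 miRs minus CTRL miR (log2) for the other genes of interferon signalling, 1 point for each measured gene, with a bar at the median of each list. The lists centre near 0, with 7 of the 36 effectors risen and PTPN11 the lowest point.

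Markers of other cell types were read beside these results. Of 9 leukocyte markers measured 6 were dim, PTPRC among them at 3.18 to 3.53. The mean over the 9 was 4.75 and 4.70 in control, 4.85 and 4.93 under SHP2 miR1 and 4.82 and 4.64 under SHP2 miR2. CSF1R, a macrophage receptor, fell by 0.75, and CD14 had 0.96 (adjusted p = 0.0505). Of 7 fibroblast markers 0 passed by limma, and 0 had an unadjusted p under 0.05. Of 6 endothelial markers 4 were dim, PECAM1 rose by 0.60 and TEK fell by 1.38. Among the epithelial markers KRT14 rose by 1.10 and LAMB3 fell by 1.07. The part of any of these in the differences of the interferon-stimulated genes was not tested.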

How the data were processed

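The authors deposited 1 processed value for each probe set and array, in log2 units as judged from the range of the values, since the labels name no log base. R 2.10 and oligo 1.8 were used, per the submitters' processing notes. How background was corrected and arrays were normalized and summarised, and on which build, is not given in the sources used here. The platform annotation gave a single gene symbol to 19310 of the 28869 probe sets, several to 1752 and no symbol to 7807. The first kind was used, and 19279 of them matched RefSeq by gene identifier. For 685 genes the probe set with the highest mean was kept. Probe sets cannot be compared in level with each other.

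Groups came from the sample titles. Limma 3.58.1 in R 4.3.3 was fitted with 1 term for each of the 3 groups on all 6 arrays (lmFit, eBayes, 3 residual and 6.1 prior degrees of freedom). Two-sided p-values were adjusted over 18377 genes by Benjamini-Hochberg (threshold 0.05). Each adjusted p in the text is from this fit, unless another setting or a left-out array is named with it. Those fits were made and adjusted separately. Whether replicates were separate cultures is not in the labels, and the p-values cover just the spread between these arrays, whose number limits the precision. The members and gene lists were chosen with earlier results of these data known. All members are named. Of the pathway lists, up to 4 genes past the threshold were named by smallest p, or the 2 of smallest p where none passed. IFNB1, IFNL2 and the markers were named for context. The fit and the motif search were tested on simulated data.

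Alternatives were a trend with a robust prior, leaving out dim genes, quantile normalization, median centring, averaging probe sets, array weights, only the groups compared, a replicate block and leaving out each array. Cyclic loess normalization and counting any listed gene start were added after seeing the data.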

Additional observations from a re-analysis of the deposited data

How the results depend on the processing

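The average comparison called 7 members in the main analysis. It called 3 (GBP2, IFITM1 and IFI44L) when both SHP2 miRs were pooled as 1 group, and 3 to 7 with 1 array left out. It called 9 with a trend and robust prior, 10 with dim genes left out and 7 or 8 under the remaining settings that kept all arrays. Beyond the 7, IFI35 and DDX60 each passed under 4 of the 9 settings that kept all arrays, and OASL under 1. With SHP2 miR1 the main count of 10 became 3 to 9 with 1 array left out. Where an array was left out, its lone partner was taken to have the spread of the remaining groups. With SHP2 miR2 the count rose from 0 to 4 with a trend and robust prior and with dim genes left out. For SHP2 miR2 against SHP2 miR1 it rose from 0 to 1 under the same settings and with quantile normalization. The cause was not tested, except that leaving out dim genes tests fewer genes. Deviations of same-numbered arrays correlated weakly over all genes, at 0.067, 0.14 and 0.013. These values cannot show whether same-numbered arrays were paired, and the labels do not say. On SAMD9 and DDX60, replicate 2 read higher than replicate 1 in all 3 groups. With the replicate block the counts were 8, 9, 0 and 0, and DDX60 passed on average (adjusted p = 0.0101).

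The 7 members called on average kept their sign under every setting run. Members that were not called changed sign as follows. Quantile normalization gave HERC5 -0.012, IFI6 0.058, RSAD2 -0.032, CXCL10 -0.073 and CXCL11 -0.01. Cyclic loess gave HERC5 -0.021, IFI6 0.053, RSAD2 -0.030, CXCL10 -0.067 and CXCL11 -0.022. Median centring gave CXCL10 -0.0069. With 1 array left out, the differences ranged from -0.0065 to 0.29 for OAS2, -0.077 to 0.31 for IFIT1, -0.15 to 0.070 for IFIT3, -0.088 to 0.19 for IFIT5, -0.021 to 0.17 for HERC5, -0.0012 to 0.39 for HERC6 and -0.36 to 0.14 for MX2. They ranged from -0.13 to 0.10 for IFI6, -0.34 to 0.084 for IFI27, -0.088 to 0.22 for RSAD2, -0.36 to 0.056 for SAMD9L, -0.092 to 0.44 for PARP14, -0.0052 to 0.48 for XAF1, -0.008 to 0.069 for CXCL10 and -0.036 to 0.18 for CXCL11. The member median, 0.14 in the main analysis, was 0.06 with quantile normalization, 0.10 with centring, 0.05 with cyclic loess and 0.09 to 0.19 with 1 array left out. The stricter GAS spelling lowered the members with a match from 11 to 3. Low signal limits what can be said of the 13 dim members.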
